A study of Mus musculus with 12 samples.

Results

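Guanylate-binding proteins (GBPs) and immunity-related GTPases (IRGs) are 2 families of interferon-inducible GTPases, and 9 of their genes are described here: Gbp2, Gbp3, Gbp5, Gbp7, Irgm1, Irgm2, Igtp, Ifi47 and Iigp1. They were picked by gene symbol from the 40847 rows of the deposited count table; the rule uses no measured value, but the set was chosen with earlier results of these data known. All 9 were found, and all 9 passed the filter on low counts that 14749 rows passed. Both families are known for cell-autonomous defence: when interferon reaches a macrophage, these proteins accumulate, load onto the membranes around intracellular bacteria and parasites, and help to break those compartments or to expose their contents to inflammasomes. The classical inducer is interferon gamma, with IRF1 among the factors that carry its signal, and type I interferon also induces them. The IRGM proteins (Irgm1, Irgm2 and Igtp, which is also called Irgm3) sit on the cell's own membranes and keep the effector IRGs (here Ifi47, also called Irgd, and Iigp1, also called Irga6) inactive there.

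The cells were mouse fetal liver alveolar-like macrophages (FLAMs), liver-derived macrophages of the fetus that are kept as a culture with GM-CSF (30 ng/ml in all groups) and that the labels list as a cell line. The 4 groups of 3 libraries were untreated cells, cells kept with recombinant human TGFβ1 at 20 ng/ml (TGFβ), cells given the synthetic TLR2 ligand Pam3CSK4 at 25 ng/ml for 18 h (Pam3), and cells given both (Pam3+TGFβ). The question in the series title is whether TGFβ changes the type I interferon answer to TLR2 activation. The labels name no strain, sex or age, and nothing in them says that replicates came from separate cultures or animals, so the p-values measure the spread between these libraries, which may be technical.

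Library totals ran from 34036600 to 44374100 counts. All 12 macrophage markers on the list had counts in every group, with a summed level of 22924 to 42009.9 CPM (counts scaled by library size and TMM factor). The sum was lowest with TGFβ alone and was mostly Lyz2 (29824 CPM in untreated cells and 15249 CPM with TGFβ), and members of the list lay both ways: Marco (2147 and 123 CPM), Itgax (335 and 168 CPM), Adgre1 (303 and 145 CPM) and Cd68 (858 and 549 CPM) were lower with TGFβ alone, and Siglecf (32.1 and 300.4 CPM), Pparg (117 and 225 CPM), Car4 (448 and 774 CPM) and Chil3 (2954 and 5038 CPM) were higher. T and NK cells make interferon gamma, and their 12 markers summed to 0.473 to 0.553 CPM in untreated libraries, 1.13 to 1.26 CPM with TGFβ, 0.208 to 0.508 CPM with Pam3 and 0.776 to 1.16 CPM with Pam3+TGFβ. Klrb1c carried most of these sums (0.453, 1.10, 0.335 and 0.601 CPM in the untreated, TGFβ, Pam3 and Pam3+TGFβ groups). Of the 12 markers, Cd3e, Cd3g, Cd8a, Trbc1 and Ncr1 had no count in any library. Trac, a T cell receptor gene, was counted 10, 10 and 15 times where both agents were given (replicates 1 to 3) and not at all elsewhere. Gzma had 5 counts in Pam3+TGFβ replicate 1 and none elsewhere. Neutrophil markers, with Mpo at 0, summed to 13.5 to 17.1 CPM in libraries without TGFβ and 3.75 to 6.99 CPM with it. S100a8 carried that difference (13.8, 3.07, 15.4 and 3.98 CPM in the untreated, TGFβ, Pam3 and Pam3+TGFβ groups), while S100a9 (0.253, 0.993, 0.500 and 1.16 CPM) and Ngp (0.346, 0.623, 0.326 and 0.595 CPM) lay the other way. Cdh1 carried the stroma and epithelium list (171, 394, 147 and 258 CPM in the untreated, TGFβ, Pam3 and Pam3+TGFβ groups). Dendritic cell markers summed to 18.8 to 23.3, 20.8 to 23.7, 21.5 to 24.9 and 16.8 to 18.3 CPM in the same order. Among them Zbtb46 was lower with TGFβ (4.64, 1.42, 4.11 and 1.55 CPM), while Clec9a carried the sums (16.7, 20.5, 18.5 and 15.5 CPM). Cpa3 of the mast cell list was also lower with TGFβ (0.599, 0.0334, 0.406 and 0.0452 CPM). The part of any of these markers in the results was not tested. The share of counts in the 2 mitochondrial rRNA genes split the libraries: it was 0.0680 to 0.113% in 7 libraries and 0.348 to 0.596% in 5, namely untreated replicate 3, TGFβ replicates 1 and 3, and Pam3 replicates 2 and 3. No Pam3+TGFβ library was among those 5. Results for the 9 genes over the 7 libraries of low share are therefore given below beside each comparison. Counts over all tested genes are given in the section on how the results depend on the processing. In that fit Pam3 is 1 library (replicate 1) and TGFβ is 1 library (replicate 2), each assumed to vary like the other groups, so its calls are no replicate check of those groups.

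Of the 9 genes, 8 lie in 3 regions of the GRCm39 genome (GENCODE M39 gene models), all protein coding. Gbp5 (chr3:142199739-142228105), Gbp7 (chr3:142236044-142255910), Gbp3 (chr3:142265731-142278979) and Gbp2 (chr3:142326349-142343779) lie in this order on the plus strand. Gbp2b, which is not among the 9, lies between Gbp3 and Gbp2. Irgm1 (chr11:48752795-48763164, minus strand) and Ifi47 (chr11:48967412-48987813, plus strand) share a region of chromosome 11, and Igtp (chr11:58089840-58098417) and Irgm2 (chr11:58090444-58113615) overlap each other on its plus strand. Igtp and Irgm2 shared 3.55% and 4.33% of their exon bases on the same strand, so a small part of their reads could be assigned to either gene. Gbp7 shared 10.6% with the model Gm43802.

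Promoter letters are shown for the genes because the factors that interferons activate read 2 short motifs: ISRE (bound by factors of the IRF family, searched as GAAA, any 2 bases and GAAA again) and GAS (the gamma-activated site, searched as TTCNNNGAA). Both strands were searched in the RefSeq windows from 250 bases before to 50 bases after each start, which were matched once each by sequence to GRCm39. On the opposite strand ISRE reads TTTC, 2 bases, TTTC, and the GAS letters read the same on both strands. Positions count from the RefSeq start, with -1 the first base before it. The stretches of 30 bases below hold matches upstream of the start of 7 genes, 5′ to 3′ along the gene, with the matches in capitals. Tgtp1 and Tgtp2, which are among the other IRG genes with the arrangement described after them, are shown for comparison.
Gbp2, positions -69 to -40, chr3:142326355-142326384, plus strand: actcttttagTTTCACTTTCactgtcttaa
Gbp3, positions -52 to -23, chr3:142265753-142265782, plus strand: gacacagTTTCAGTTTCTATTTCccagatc
Gbp5, positions -175 to -146, chr3:142202520-142202549, plus strand: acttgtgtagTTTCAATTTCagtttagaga
Gbp5, positions -62 to -33, chr3:142202633-142202662, plus strand: tggccgttatTTCTCAGAAccaagcacaga
Gbp7, positions -107 to -78, chr3:142235990-142236019, plus strand: tTTCCAGGAAaagcagaagcTTCTCAGAAa
Gbp7, positions -63 to -34, chr3:142236034-142236063, plus strand: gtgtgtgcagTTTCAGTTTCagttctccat
Irgm1, positions -37 to -8, chr11:48762255-48762284, minus strand: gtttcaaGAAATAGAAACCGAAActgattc
Irgm2, positions -79 to -50, chr11:58105724-58105753, plus strand: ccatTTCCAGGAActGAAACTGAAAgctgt
Igtp, positions -49 to -20, chr11:58090333-58090362, plus strand: ccatTTCTAGGAActGAAACTGAAAgctgt
Tgtp1, positions -92 to -63, chr11:48883136-48883165, minus strand: ccatTTCCAGGAAtcGAAACTGAAAcctac
Tgtp2, positions -85 to -56, chr11:48955095-48955124, minus strand: ccatTTCCAGGAAtcGAAACCGAAAcctac

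ISRE letters were found in 7 of the 8 genes searched (Iigp1 was not searched), and in 3.44% of all 32851 windows. GAS letters were found in 4 of the 8 (Gbp5, Gbp7, Irgm2 and Igtp), and in 8.3% of all windows. Those 4 genes held both motifs, as did 0.454% of all windows. In Gbp3 and Irgm1, 2 ISRE matches overlap in a run of 16 letters. In Irgm2 and Igtp the GAS letters are followed after 2 bases by the ISRE letters, an arrangement that 5 of the 32851 windows hold (0.0152%). The 5 are Igtp, Irgm2, Tgtp1, Tgtp2 and Gm12185, all IRG genes. The Igtp and Irgm2 windows share an identical run of 61 bases, and 101 of the 105 bases around this arrangement are the same in both. The Ifi47 window held neither set of letters. Irgm2 and Igtp have different GENCODE context, since the Irgm2 stretch lies outside its exons and the Igtp stretch lies wholly within an exon of the Igtp model. The Gbp2, Gbp3 and Irgm1 stretches and the Gbp5 stretch at -62 also lie wholly within GENCODE exons. So do 16 bases of the Gbp5 stretch at -175, 20 of the Gbp7 stretch at -63 and 12 of the Tgtp1 stretch. A match here is a description of letters, not a measured site.

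**Figure D1:**
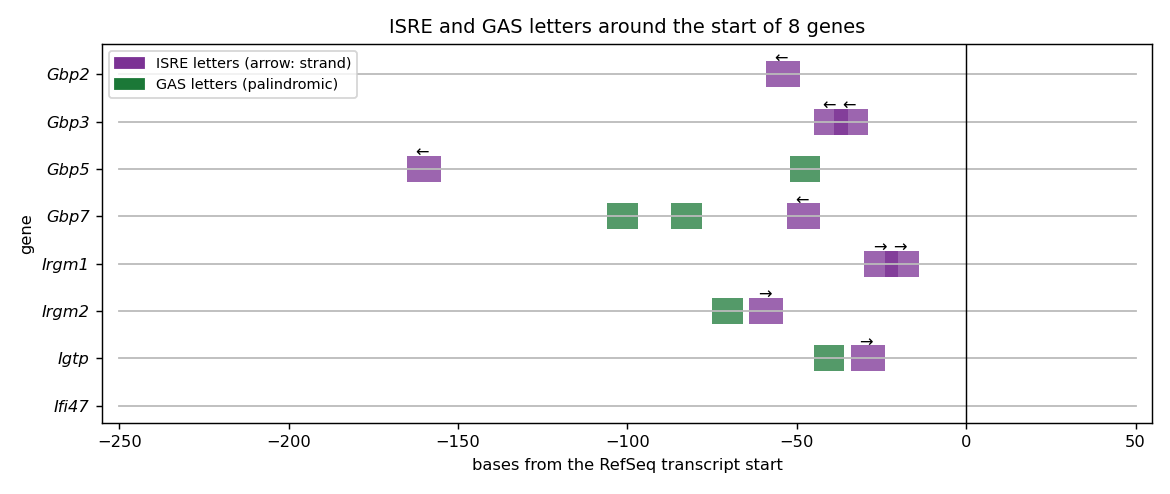
Positions of ISRE and GAS letters relative to the RefSeq start (x axis, bases) in the windows of 8 genes (rows). Purple marks are ISRE letters with an arrow for their strand and green marks are GAS letters, and the GAS letters sit directly before the ISRE letters in Irgm2 and Igtp, while the Ifi47 row is empty. 1 upstream match is not drawn.

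The transcripts of all 9 genes were lowest without Pam3, intermediate with Pam3 alone and highest with Pam3+TGFβ. Summed over the 9 genes, untreated cells held 179 ± 6.15 CPM and TGFβ cells 136 ± 11.9 CPM, while Pam3 cells held 341 ± 28.1 CPM and cells given both agents 847 ± 16.0 CPM (SD, n = 3 in every group). In the rest of the text, a change is a log2 fold change ± standard error (SE) and an adjusted p is Benjamini-Hochberg adjusted over all 14749 tested genes, both from edgeR's quasi-likelihood test on counts. "Higher" or "lower" as a call means an adjusted p under 0.05. In bulk RNA, fewer cells of a type and less RNA per cell cannot be told apart.

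Gbp2 encodes a prenylated GBP that coats the vacuoles of several pathogens. Its level was 23.3, 26.7 and 27.3 CPM in the 3 untreated libraries and 15.3, 17.7 and 16.9 CPM with TGFβ. With Pam3 it was 54.7, 52.4 and 44.6 CPM, and with both agents 97.5, 95.1 and 95.03 CPM. No group overlapped another, and the TGFβ libraries were the low ones and the Pam3+TGFβ libraries the high ones. Pam3 raised Gbp2 1.97-fold without TGFβ (0.98 ± 0.077, adjusted p = 5.96e-10) and 5.76-fold with it (2.53 ± 0.080, adjusted p = 1.63e-18).

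Gbp5, known for promoting NLRP3 inflammasome assembly, had the largest changes of the 4 GBP genes. It stood at 3.55, 4.45 and 4.56 CPM in untreated libraries and at 2.08, 2.099 and 1.23 CPM with TGFβ. The Pam3 libraries held 11.5, 12.7 and 9.499 CPM and the Pam3+TGFβ libraries 53.4, 47.3 and 42.9 CPM, so that the 4 groups were again separate. TGFβ lowered Gbp5 2.32-fold in cells without Pam3 (-1.21 ± 0.18, adjusted p = 7.63e-06) and raised it 4.24-fold in cells with Pam3 (2.08 ± 0.13, adjusted p = 1.51e-11). Seen from Pam3, the rise was 2.696-fold without TGFβ and 26.5-fold with it.

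Gbp7, linked in mice to the assembly of the phagocyte NADPH oxidase, had the smallest Pam3 responses of the 9 genes. Its untreated libraries held 76.7, 60.8 and 76.6 CPM and its TGFβ libraries 47.2, 54.6 and 47.2 CPM. Pam3 libraries held 98.9, 94.1 and 87.9 CPM, and Pam3+TGFβ libraries 173, 160.0 and 166 CPM. The untreated libraries lay between the other single groups, with the Pam3 libraries above them by 1.31-fold (0.39 ± 0.078, adjusted p = 0.00104).

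Gbp3, a further GBP of the same cluster, was measured at 8.29, 6.28 and 5.67 CPM in untreated libraries and 5.67, 6.15 and 4.98 CPM with TGFβ, and these 2 groups overlapped. It was at 10.5, 13.8 and 10.7 CPM with Pam3 and at 32.5, 33.01 and 32.5 CPM with both agents, where the 3 libraries differed by less than 1 CPM. The TGFβ effect without Pam3 was -0.27 ± 0.13 and was not called (adjusted p = 0.0989), while that with Pam3 was 1.48 ± 0.12 (adjusted p = 1.43e-10).

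Of the 3 IRGM regulators, Irgm1 is best known for its part in resistance to mycobacteria and in mitochondrial and lysosomal upkeep. Its level was 26.8, 35.1 and 30.6 CPM in untreated libraries and 23.2, 28.8 and 22.6 CPM with TGFβ, which overlap. It was 85.96, 85.2 and 68.9 CPM with Pam3, with replicate 3 the low one, and 205, 215 and 208 CPM with Pam3+TGFβ. Pam3 raised it 2.59-fold without TGFβ and 8.41-fold with it (1.38 ± 0.12 and 3.07 ± 0.12, adjusted p = 2.54e-06 and 2.77e-10). The TGFβ effect without Pam3 was called lower (-0.31 ± 0.12, adjusted p = 0.0456), but the call was lost in 9 of 21 alternative analyses: without untreated replicate 2 or 3, TGFβ replicate 1 or 3 or any 1 of the Pam3+TGFβ libraries, with upper-quartile scaling, and over the libraries of low mitochondrial rRNA share. Its value in these ran from -0.32 to -0.076, with adjusted p from 0.0662 to 0.676.

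Irgm2, an IRGM protein of the Golgi region that also restrains the caspase-11 inflammasome, was at 17.5, 19.6 and 20.1 CPM in untreated libraries and at 19.2, 20.5 and 16.98 CPM with TGFβ. These ranges overlapped and the difference was -0.013 ± 0.076 (adjusted p = 0.899). Pam3 libraries held 44.1, 44.5 and 39.7 CPM and Pam3+TGFβ libraries 137, 131 and 125 CPM, well apart from each other. The TGFβ effect with Pam3 was thus 3.06-fold (1.62 ± 0.071, adjusted p = 6.93e-16).

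Igtp, an IRGM protein of the endoplasmic reticulum needed for resistance to Toxoplasma, was the one gene of the 9 that TGFβ alone raised. Its untreated libraries held 13.2, 13.1 and 14.03 CPM and its TGFβ libraries 15.4, 16.8 and 14.96 CPM, with no overlap, a rise of 1.17-fold (0.23 ± 0.070, adjusted p = 0.00815). The Pam3 libraries were at 31.7, 31.9 and 28.7 CPM and the Pam3+TGFβ libraries at 112, 109 and 106 CPM. The TGFβ effect grew to 3.54-fold in the presence of Pam3 (1.82 ± 0.065, adjusted p = 8.51e-18). The rise with TGFβ alone kept its call in all 21 alternatives, with adjusted p from 0.0028 to 0.041. Its value ran from 0.20 without TGFβ replicate 2 to 0.38 over the libraries of low mitochondrial rRNA share.

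Ifi47 is an effector IRG. Its level was 6.34, 8.06 and 6.701 CPM in untreated libraries and 3.49, 2.69 and 2.41 CPM with TGFβ, the largest fall of a called gene among the 9 (2.47-fold, -1.30 ± 0.12, adjusted p = 2.22e-09). With Pam3 it was 21.3, 19.4 and 18.2 CPM and with Pam3+TGFβ 50.4, 53.98 and 51.3 CPM, and all 4 groups were separate. The Pam3 response was 2.79-fold without TGFβ and 18.2-fold with it.

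Iigp1 (chr18:60506680-60525706, plus strand), the effector IRG that is recruited to Toxoplasma and Chlamydia vacuoles, was close to the limit of detection without Pam3. Its counts were 3, 12 and 4 in untreated libraries and 1, 7 and 0 with TGFβ. They were 43, 25 and 18 with Pam3 and 81, 74 and 138 with Pam3+TGFβ, where the 3 libraries held 2.36, 1.98 and 3.12 CPM. The libraries with Pam3 lay above those without it, and those with both agents above those with Pam3 alone. Iigp1 passed the filter on low counts only through its libraries with Pam3. Its changes were 2.25 ± 0.58 for Pam3 alone, 5.11 ± 0.63 for Pam3 with TGFβ and 1.65 ± 0.48 for TGFβ with Pam3, and with so few counts their standard errors were the largest of the 9 genes.

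**Figure D2:**
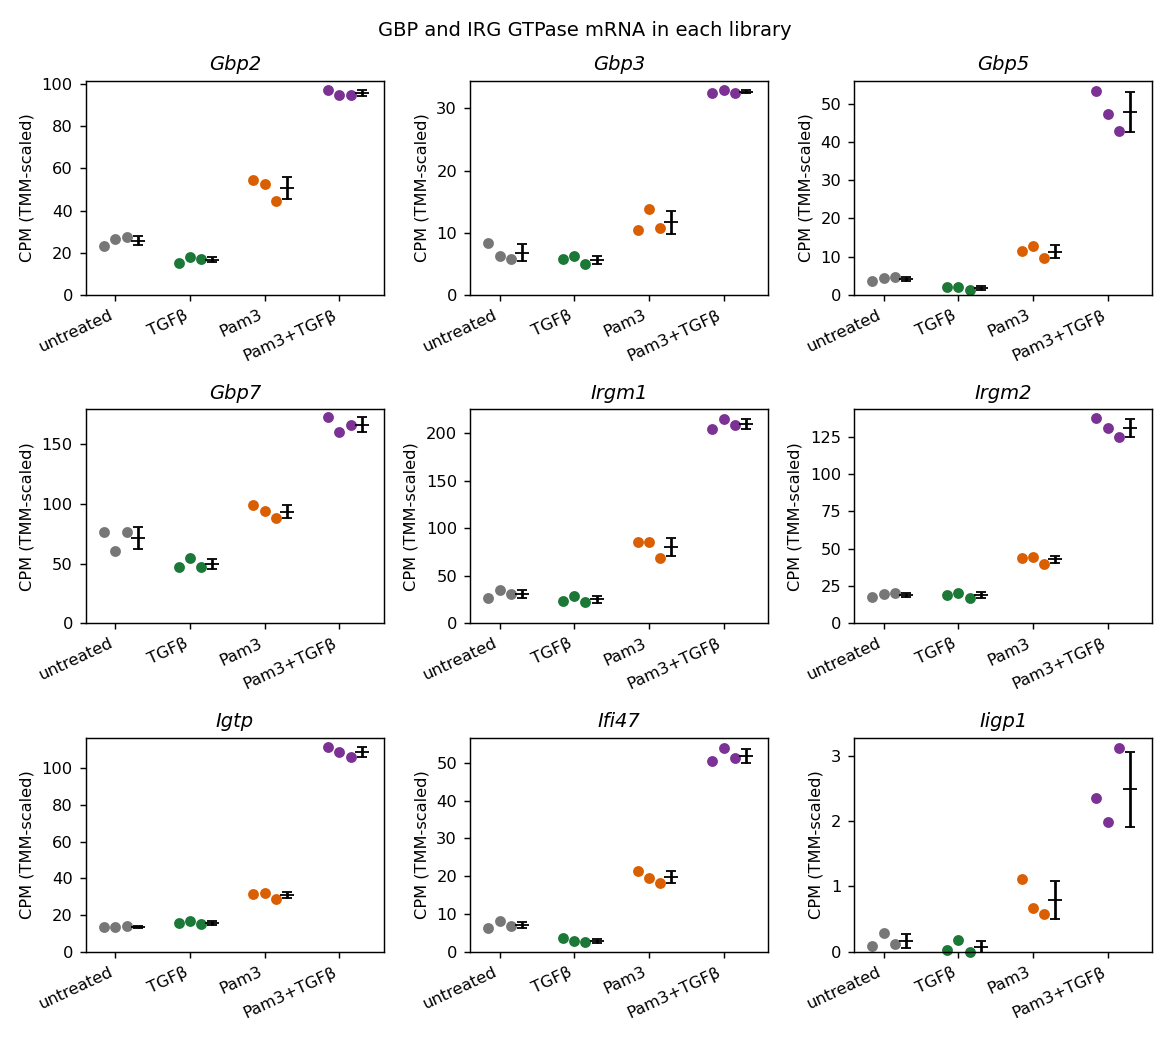
Level of each of the 9 genes (one panel per gene, y axis in TMM-scaled CPM on its own scale) in the 4 groups (x axis), with points for the 3 libraries and a bar for the group mean ± SD. In every panel the 3 Pam3+TGFβ libraries lie above all Pam3 libraries, and for Gbp2, Gbp5, Gbp7 and Ifi47 the TGFβ libraries lie below all untreated libraries.

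Pam3 without TGFβ raised all 9 genes, by 1.31-fold (Gbp7) to 4.74-fold (Iigp1), with a median change of 1.20 against 0.00037 over all tested genes. Iigp1 passed the filter on low counts only through its libraries with Pam3, and the next largest change was 1.48 for Ifi47. Across the table, 9.62% of tested genes were called higher in this comparison. In all 9 genes the lowest Pam3 library was above the highest untreated library, a separation that 15.6% of tested genes showed in that direction. Over the 7 libraries of low mitochondrial rRNA share, with 1 Pam3 library, 9 of the 9 were called higher. The change of Iigp1 was 2.25, and 3.00 without untreated replicate 2. Without Pam3 replicate 1, it was no longer called (1.90, adjusted p = 0.0519).

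Pam3 with TGFβ raised all 9 genes as well, here by 3.35-fold (Gbp7) to 34.4-fold (Iigp1). Iigp1 passed the filter on low counts only through its libraries with Pam3, and the next largest change was 4.73 for Gbp5. The median change was 2.79, against -0.019 over all tested genes, and 20.4% of tested genes were called higher. No TGFβ library reached the level of a Pam3+TGFβ library for any of the 9, and 25.4% of tested genes were separated in this way. The 9 calls held in each of the 21 alternatives, but the size for Iigp1 rests on few counts: its change of 5.11 was 7.20 without TGFβ replicate 2 and 3.81 over the libraries of low mitochondrial rRNA share, where 9 of the 9 were called with 1 TGFβ library.

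TGFβ without Pam3 moved the genes apart. Gbp2, Gbp5, Gbp7, Irgm1 and Ifi47 were called lower (28.1% of tested genes were called lower), Igtp was called higher (22.9% of tested genes), and Gbp3, Irgm2 and Iigp1 were not called. The TGFβ libraries of Gbp2, Gbp5, Gbp7 and Ifi47 lay wholly below the untreated ones, as for 30.3% of tested genes, and those of Igtp wholly above, as for 26.1%. The falls ranged from 1.24-fold for Irgm1 to 2.47-fold for Ifi47. The median change of the 9 was -0.52, against -0.0084 over all tested genes. The 5 falls therefore stand against a high background. Over the 7 libraries of low mitochondrial rRNA share, with 1 TGFβ library, the median of the 9 was -0.21. Gbp7 (-0.31) and Irgm1 (-0.076) lost their calls there. The value of Gbp3, -0.27, ran from -0.38 without untreated replicate 3, where it was called (adjusted p = 0.0264), to -0.073 without untreated replicate 1 (adjusted p = 0.688). That of Iigp1, -1.21 (adjusted p = 0.199), ran from -3.29 without TGFβ replicate 2, where it was called (adjusted p = 0.012), to -0.085 over the libraries of low mitochondrial rRNA share (adjusted p = 0.951).

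With Pam3 present, TGFβ raised all 9 genes, by 1.78-fold (Gbp7) to 4.24-fold (Gbp5). Their median change was 1.48, against -0.0017 over all tested genes, of which 21.5% were called higher. All 3 Pam3+TGFβ libraries stood above all 3 Pam3 libraries for each of the 9, and 26.8% of tested genes were separated in that direction. Over the libraries of low mitochondrial rRNA share, with 1 Pam3 library, 8 of the 9 were called higher. Iigp1 lost its call over the libraries of low mitochondrial rRNA share (1.16, adjusted p = 0.081), with that share as a covariate (0.96, adjusted p = 0.172) and without Pam3+TGFβ replicate 3 (1.46, adjusted p = 0.0558), while the other 8 genes kept theirs in all 21 alternatives.

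**Figure D3:**
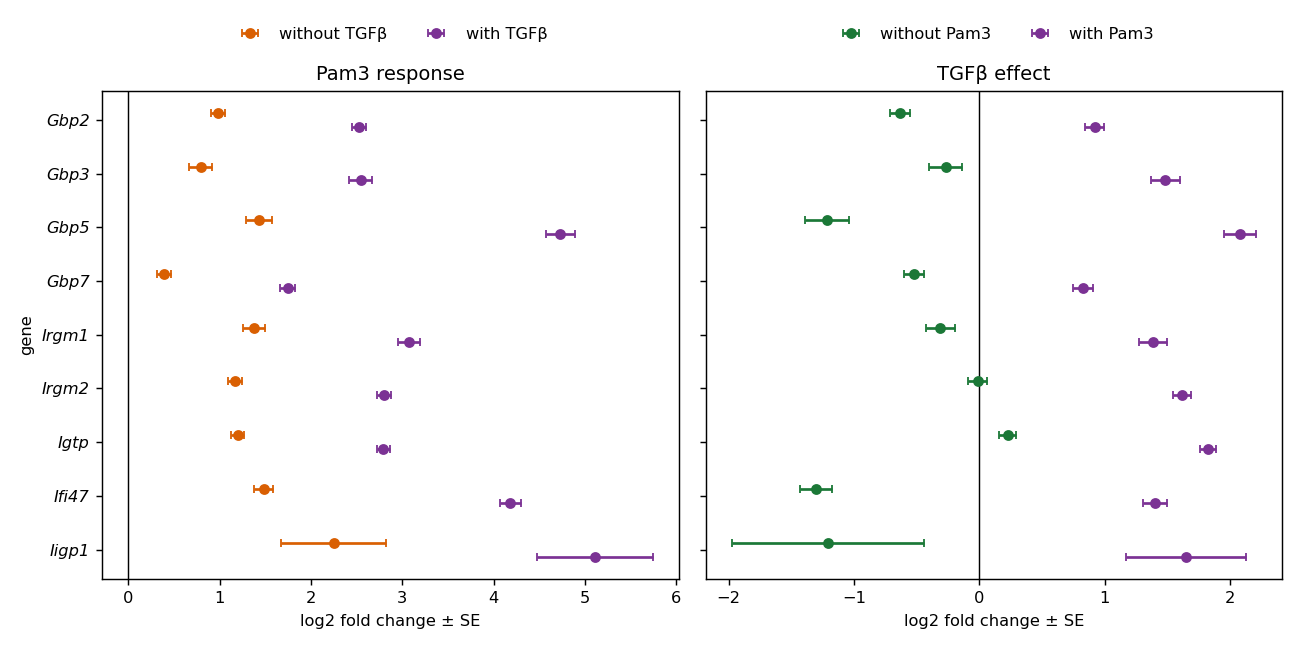
Log2 fold change ± SE (x axis) of each of the 9 genes (rows). The left panel shows the Pam3 response without (orange) and with TGFβ (purple), and the right panel the TGFβ effect without (green) and with Pam3 (purple): the TGFβ effect is on the negative side or near 0 without Pam3, except for Igtp at 0.23, and positive for every gene with Pam3.

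The interaction, that is the difference of the Pam3 responses (TGFβ cells minus cells without it), tests the difference between the 2 responses directly. It was positive and called for all 9 genes, as for 10.3% of tested genes in that direction, with a median of 1.70 against 0.0045 over all tested genes. The median of the 9 was 1.58 with the mitochondrial rRNA share as a covariate. Over the libraries of low share, with 1 Pam3 and 1 TGFβ library, it was 1.41. The values were 3.30 ± 0.22 for Gbp5 (adjusted p = 4.17e-10) and 2.70 ± 0.16 for Ifi47 (adjusted p = 3.31e-12), the largest of the 8 well-counted genes. The other 6 lay between 1.35 ± 0.11 for Gbp7 and 1.75 ± 0.18 for Gbp3, and differences among them were not tested. Iigp1 passed the filter on low counts only through its libraries with Pam3. Its interaction was 2.86 ± 0.90 (adjusted p = 0.0305), and this call was lost in 9 of 20 alternatives. It was lost without untreated replicate 2, TGFβ replicate 1 or 3, Pam3 replicate 2 or 3, or Pam3+TGFβ replicate 1 or 3 (2.12 to 2.88, adjusted p from 0.0577 to 0.181). Its value was 4.95 without TGFβ replicate 2, 1.87 (adjusted p = 0.25) with the mitochondrial rRNA share as a covariate, and 1.25 (adjusted p = 0.571) over the libraries of low share, where 8 of the 9 were called.

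The parts of the interaction were set side by side for each gene, with no test of differences between genes. For Igtp and Irgm2 the TGFβ effect without Pam3 was 0.23 and -0.013, so their interaction lay in the level with both agents. The TGFβ effect with Pam3 was 114% of the interaction in Igtp and 99.2% in Irgm2. It was 84.7% in Gbp3 and 81.7% in Irgm1, and 63.2% in Gbp5, 61.4% in Gbp7, 59.4% in Gbp2, 57.8% in Iigp1 and 51.8% in Ifi47, with the value of TGFβ alone making up the rest. The split for Iigp1 was not stable: TGFβ alone gave -1.21, not called, beside an interaction of 2.86. Without TGFβ replicate 2 these were -3.29 and 4.95, and over the libraries of low mitochondrial rRNA share -0.085 and 1.25. The 2 effects of TGFβ use different libraries, but the interaction is their difference and is not a further measurement.

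The genes' order of abundance also differed between groups, compared here as CPM per kilobase of exon. The length is that of all exons of the GENCODE model joined, from 2561 bases for Gbp2 to 7290 for Gbp5. It need not be the length transcribed or counted here, and ranks and shares between genes depend on it. Untreated cells held 11.9 ± 1.52 CPM per kilobase of Gbp7 and 10.05 ± 0.846 of Gbp2, which overlapped, followed by Irgm2 (5.09) and Irgm1 (4.85), which also overlapped. Igtp (2.95), Ifi47 (2.47), Gbp3 (1.59), Gbp5 (0.575) and Iigp1 (0.0252) came next without overlap between neighbours. In Pam3+TGFβ cells Gbp2 led at 37.4 ± 0.537 CPM per kilobase. Irgm2 (35.0) and Irgm1 (32.9) came next and overlapped, and Gbp7 was the fourth at 27.8. Igtp (23.9), Ifi47 (18.2), Gbp3 (7.69), Gbp5 (6.57) and Iigp1 (0.390) kept the order of untreated cells.

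As a share of the CPM per kilobase summed over the 9 genes, the 4 GBPs made up 61.1 ± 2.89% in the untreated group and 54.9 ± 1.41% in the TGFβ group, and 51.2 ± 0.0083% in the Pam3 group and 41.8 ± 0.656% in the group given both (SD, n = 3). The 5 IRGs made up the rest, and 58.2 ± 0.656% with both agents. Gbp7 fell from 30.2 ± 3.84% of the sum in untreated cells to 14.6 ± 0.495% with both agents, and Gbp2 from 25.4 ± 1.53% to 19.7 ± 0.185%. Gbp3 held 4.04 ± 0.944% and 4.05 ± 0.0807% in these 2 groups, while Gbp5 rose from 1.45 ± 0.158% to 3.45 ± 0.318%. Igtp held 7.46 ± 0.0923% in untreated cells and 11.6 ± 0.191% with TGFβ, and 8.72 ± 0.245% with Pam3 and 12.6 ± 0.0741% with both. Irgm2 held 12.9 ± 0.611% and 16.9 ± 0.792%, and 14.8 ± 0.367% and 18.4 ± 0.547%, in the same order. The shares of Igtp and of Irgm2 were thus higher in each TGFβ group than in the group without TGFβ beside it, with no overlap.

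**Figure D4:**
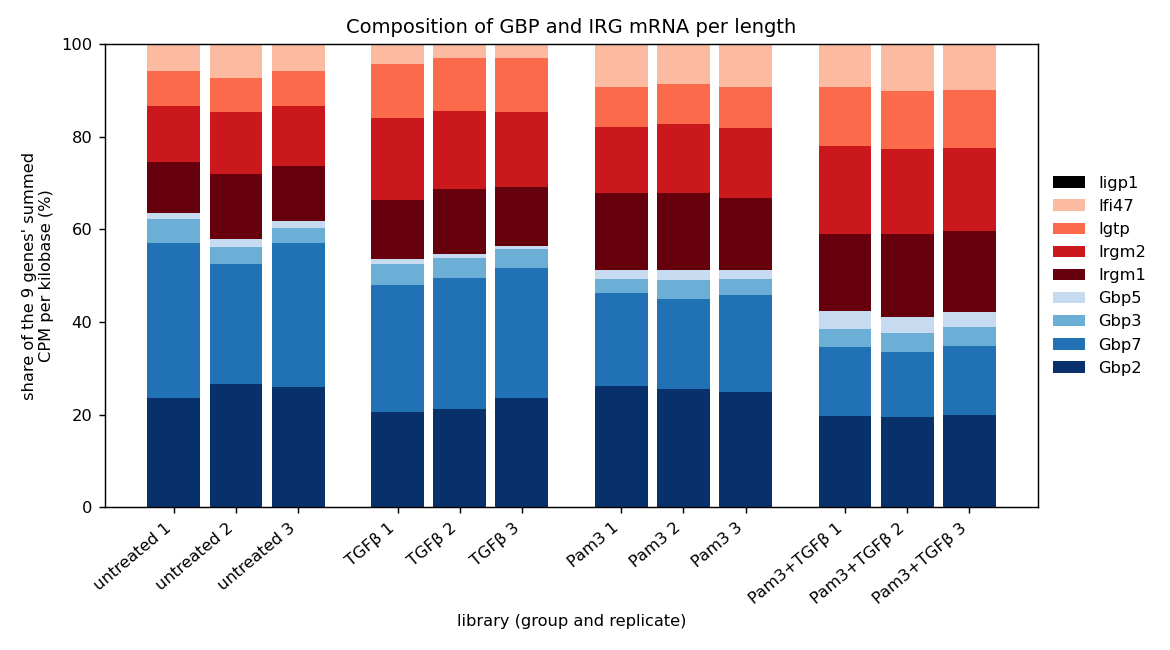
Share of each of the 9 genes in their summed CPM per kilobase of exon (y axis, percent) in each of the 12 libraries (x axis, by group). The GBP part is 57.8 to 63.4% of the sum in the untreated libraries and 41.1 to 42.3% in the Pam3+TGFβ libraries, and Iigp1 is too small to be seen.

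Across the 12 libraries the 9 genes followed one another closely: the correlation of each with the mean of the other 8 ran from 0.954 (Iigp1) to 0.995 (Irgm1) on the log2 CPM scale. The libraries share their 4 groups, so these values describe the group pattern. Within groups, TGFβ replicate 2 was the highest of its group for 8 of the 9 genes, and TGFβ replicate 3 and Pam3 replicate 3 were each the lowest of theirs for 8 of the 9.

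The remaining GBP, IRG and large GVIN GTPase genes were examined as a list of 33 symbols, of which 23 were in the table and 21 were tested. Pam3 raised 11 of the 21 and lowered 1 (Gbp8) without TGFβ, and raised 17 and lowered 1 (Irgq) with it. TGFβ alone lowered 17, with a median of -1.55, and the other 4 were not called. With Pam3 present, TGFβ raised 9 (9930111J21Rik1, 9930111J21Rik2, Gbp6, Gbp9, Gbp10, Gm12250, Gvin1, Gvin2 and Tgtp2), lowered 4 (Gbp8, F830016B08Rik, Irgc1 and Irgq), and the other 8 were not called. The interaction was called higher for 15 and lower for 1, with a median of 1.16. The background over all tested genes was 9.62% raised and 8.66% lowered for Pam3 without TGFβ, and 20.4% raised and 18.1% lowered for Pam3 with it. The shares were 28.1% lower for TGFβ alone, 21.5% higher and 23.8% lower for TGFβ among cells given Pam3, and 10.3% higher and 5.67% lower in the interaction. Over the libraries of low mitochondrial rRNA share, TGFβ raised 5 in place of 9 among cells given Pam3, and 9 in place of 15 had a positive interaction.

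Gbp6 fell with TGFβ alone (-1.14 ± 0.11, adjusted p = 2.11e-09) and rose with TGFβ in cells given Pam3 (1.42 ± 0.090, adjusted p = 1.13e-12), the directions called for Gbp2, Gbp5, Gbp7, Irgm1 and Ifi47. It was at 8.496, 9.07 and 10.2 CPM in untreated libraries and 3.65, 4.35 and 4.53 CPM with TGFβ. It stood at 25.4, 25.03 and 20.6 CPM with Pam3 and 67.3, 62.5 and 60.1 CPM with both, an interaction of 2.56 ± 0.14 (adjusted p = 1.25e-12). Gbp10 and Gm12250, the latter known as Irgb10, had interactions of 2.86 ± 0.25 and 2.85 ± 0.30 (adjusted p = 3.81e-09 and 2.14e-07). Gbp6 and Gbp10 share 25.4% and 44% of their exon bases with the model Gm43302, so reads could be split between them. Tgtp2, which encodes Irgb6, had an interaction of 4.60 ± 0.68 (adjusted p = 1.59e-05), and its near copy Tgtp1 one of 3.18 ± 1.02 (adjusted p = 0.0336), both at under 3 CPM. Both rest on few counts: Tgtp2 had 1, 2 and 1 in the TGFβ libraries. Tgtp1 had 2, 8 and 11 in untreated libraries and 2, 0 and 3 with TGFβ. Tgtp1 passed the filter on low counts only through its libraries with Pam3.

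Gbp4 took another course. It stood at 2.31, 2.31 and 2.14 CPM in untreated libraries and 0.194, 0.198 and 0.183 CPM with TGFβ, a fall of 11.6-fold (adjusted p = 1.50e-10). With Pam3 it was at 5.96, 6.29 and 3.69 CPM and with both agents at 5.93, 6.67 and 5.08 CPM, which overlap, and the TGFβ effect there was 0.14 ± 0.19 (adjusted p = 0.565). Its positive interaction of 3.68 ± 0.35 (adjusted p = 1.86e-08) therefore came with no called difference between the 2 Pam3 groups. Gbp8, from the same chromosome 5 cluster, was lower with TGFβ in both settings (-2.34 without and -1.49 with Pam3), from 16.3 ± 2.35 CPM in untreated cells to 4.44 ± 0.638 CPM with both agents (SD, n = 3). Irgc1 was likewise lower with TGFβ in both settings (-4.01 and -3.97), and its interaction was not called (adjusted p = 0.9804). Gbp8, Gbp9, Irgc1 and the others beyond Gbp4, Gbp6, Gbp10, Gm12250, Tgtp1 and Tgtp2 were singled out after their values were seen.

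**Figure D5:**
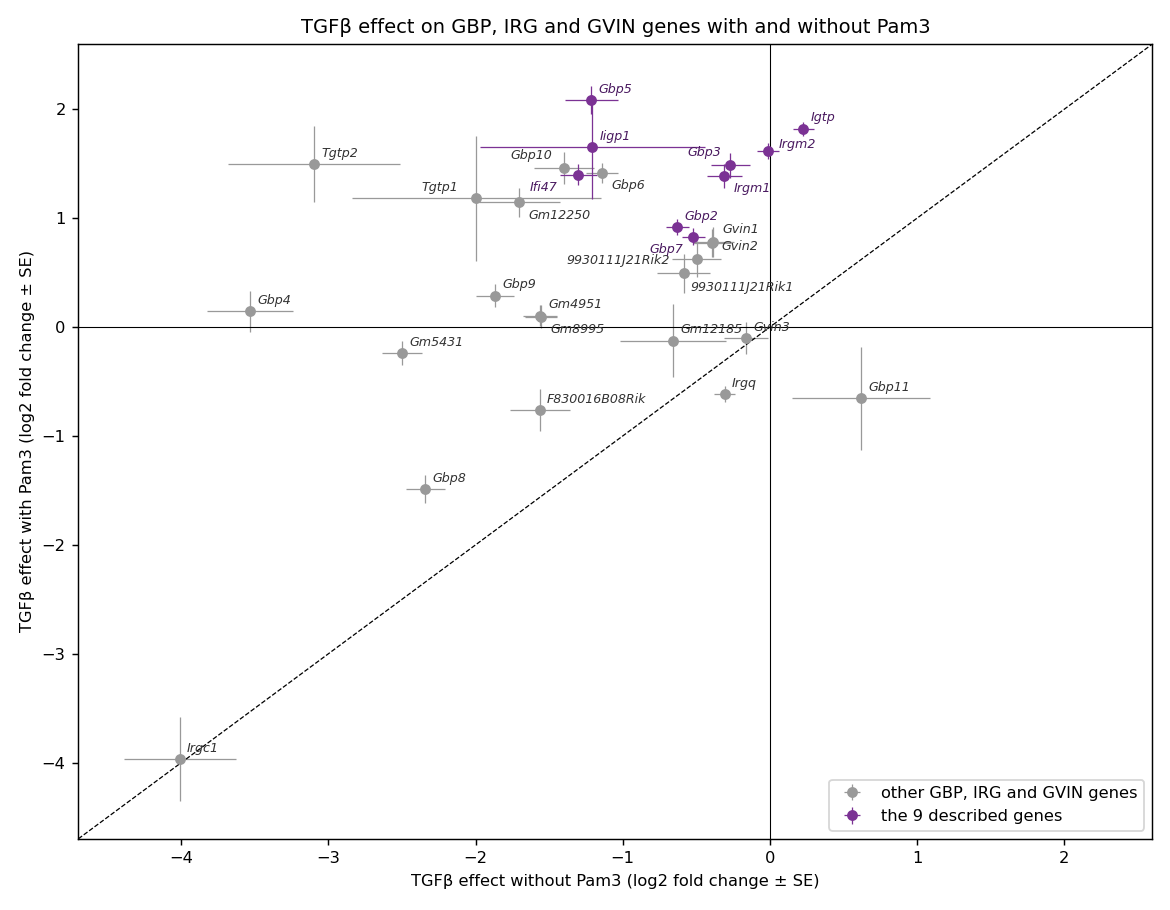
TGFβ effect without Pam3 (x axis) against TGFβ effect with Pam3 (y axis), both log2 fold change ± SE, for the 9 genes (purple) and the 21 other tested genes of the families (grey), with the line of equal effects dashed. The 9 genes lie above 0.8 on the y axis, while Gbp4 is near 0, and Gbp8 and Irgc1 are negative on both axes.

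Interferon ligand transcripts were scarce, and 18 h was the only time measured after Pam3. Ifng, which encodes interferon gamma, had no count in any of the 12 libraries, and 3 counts, taken as the limit that a count of 0 allows, would be 0.0677 to 0.0953 CPM. Ifnb1, which encodes interferon beta, was counted 11, 18 and 10 times in the libraries given both agents and not at all in the other 9. It did not pass the filter and was not tested. The same holds for Ifnk, a further ligand gene named after its counts were seen. Ifnk had 1, 3 and 0 counts with TGFβ, 5, 1 and 5 with Pam3, 2, 10 and 12 with both agents, and none in untreated libraries. Of 20 genes of interferon receptors, JAK kinases, transcription factors and their regulators, Pam3 raised 12 and lowered 2 without TGFβ and raised 15 and lowered 3 with it. Of all tested genes, 9.62% and 8.66% were called higher and lower without TGFβ, and 20.4% and 18.1% with it, so the lowered counts are near the background. TGFβ alone raised 5 and lowered 10, where 22.9% and 28.1% of all tested genes were called, so that the share raised is near the background. TGFβ with Pam3 raised 10 and lowered 2, where 21.5% and 23.8% of all tested genes were called, and the interaction was called higher for 12 and lower for 1 (Irf8, named after its value was seen), against 10.3% and 5.67% of all tested genes.

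Irf1, a transcription factor of the interferon answer, was lower with TGFβ alone (-0.37 ± 0.056) and higher with both agents than with Pam3 (0.91 ± 0.055), with 54.2 ± 0.183, 41.8 ± 0.6497, 61.6 ± 3.56 and 116 ± 2.74 CPM (SD, n = 3) in the untreated, TGFβ, Pam3 and Pam3+TGFβ groups. Its direction under TGFβ alone was thus that of Gbp2, Gbp5 and Ifi47, and opposite to that of Igtp. Irf7 and Usp18, both targets of type I interferon, had interactions of 2.45 ± 0.28 and 2.43 ± 0.32 (adjusted p = 0.000256 and 6.36e-05). Batf2, Nlrc5 (the coactivator of MHC class I genes) and Socs1 (an inhibitor of JAK kinases) had interactions of 3.27, 3.05 and 1.78, but TGFβ with Pam3 did not move them beyond the test (-0.11, -0.082 and 0.17, adjusted p = 0.798, 0.535 and 0.234), the course seen for Gbp4.

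Genes through which GBPs and IRGs are known to act were followed as 2 further lists. Among 16 genes of the ATG8 conjugation machinery and of ubiquitin-linked vacuole targeting, 4 had a called interaction, all positive (10.3% of all tested genes had one). These were Rnf213 (1.76 ± 0.18), Trim21 (1.05 ± 0.11), Sqstm1 (0.61 ± 0.091) and Traf6, which was named after its value was seen. In cells given Pam3, TGFβ lowered Atg3, Atg7, Atg12, Gabarap, Gabarapl1 and Map1lc3b of this list. It raised Rnf213, Trim21, Traf6, Map1lc3a, Ubqln1 and Ubqln2 there. TGFβ alone lowered the first group and Sqstm1, and raised Map1lc3a, Ubqln1 and Ubqln2. Those without a called interaction were named after their values were seen. Among 8 inflammasome genes linked to GBPs, 7 had a called positive interaction. The largest were those of Zbp1 (2.19 ± 0.10, adjusted p = 6.30e-14), Casp4, which encodes caspase-11 (1.98 ± 0.16, adjusted p = 9.79e-10), and Nlrp3 (0.85 ± 0.10, adjusted p = 5.73e-07). TGFβ alone lowered 7 of these 8 and raised 1 (Aim2, named after its value was seen). With Pam3 present it raised 4 and lowered 2. Over all tested genes, 28.1% were called lower and 22.9% higher with TGFβ alone. With TGFβ in cells given Pam3 the shares were 21.5% higher and 23.8% lower, so the 2 inflammasome genes lowered there are near the background share.

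The IFIT and OAS genes, typical targets of type I interferon, served as a comparison. Of 14 tested, Pam3 raised 13 without TGFβ and 14 with it, with medians of 2.79 and 5.40, where 9.62% and 20.4% of all tested genes were called higher. TGFβ alone lowered 7 and raised 1, with a median of -0.62, where 28.1% and 22.9% of all tested genes were called. TGFβ with Pam3 raised 13 and the interaction was called higher for 13, with medians of 1.67 and 2.46, where 21.5% and 10.3% of all tested genes were called higher. Ifit1 was at 3.08 ± 0.875, 1.52 ± 0.462, 39.96 ± 6.34 and 206 ± 16.5 CPM in the untreated, TGFβ, Pam3 and Pam3+TGFβ groups (SD, n = 3), a Pam3 response of 12.98-fold without and 134-fold with TGFβ. For Ifit3, cells given both agents exceeded cells given Pam3 by 3.56 ± 0.27 (adjusted p = 4.67e-06). The median Pam3 response of the 9 GTPase genes was 1.20 and 2.79 in the same 2 comparisons, and no test of the difference between the lists was made.

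The 10 genes whose log2 CPM followed the mean of the 9 most closely, out of 11886 candidates with a mean of at least 1 CPM, were Tor3a, Rhoq, Bst2, Trim30a, Parp14, Ifi207, Parp12, Tifa, Oas1a and Ifit2, with Pearson r from 0.999 to 0.993 over 12 libraries. Tor3a, the closest, had 94.1 ± 6.03, 70.2 ± 5.09, 162 ± 11.7 and 331 ± 9.52 CPM in the untreated, TGFβ, Pam3 and Pam3+TGFβ groups (SD, n = 3). Since these genes were chosen for having the pattern of the 9 over the same libraries, their changes are a description and were not counted as tests.

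Genes next to the clusters were measured as well. The nearest protein-coding neighbours outside the families that were tested within 200 kilobases were Kyat3, Pdlim5, Smim3, Trim7, Psme2b, Mrpl22 and 4930438A08Rik. Smim3, 81.6 kilobases from Iigp1, had an interaction of 0.53 ± 0.14 (adjusted p = 0.00758), and Psme2b, 73.0 kilobases from Irgm1, one of 0.54 ± 0.072 (adjusted p = 3.81e-06). The interactions of the other 5 were not called, and 10.3% of all tested genes were called higher in the interaction. Psme2b is not wholly apart from the families, as 9930111J21Rik1 shares 0.838% of its exon bases with it. Kyat3 and Pdlim5, which flank the GBP cluster on chromosome 3, had 12.3 ± 0.833 and 121 ± 3.42 CPM with Pam3 and 10.8 ± 0.603 and 106 ± 0.622 CPM with Pam3+TGFβ (SD, n = 3).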

How the data were processed

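Poly(A) RNA of 12 FLAM libraries was made with a stranded mRNA kit, per the labels' protocols. Per the submitters' processing notes, the authors used bcl2fastq 2.20.0, FastQC 0.11.7, Bowtie2 2.4.1 with the GRCm39 build, featureCounts of Subread 2.0.0, and R 4.2.1 with DESeq2 1.36.0. Which annotation, strand setting and rule for multiple alignments the counting used is not given in the sources used here. Bowtie2 does not split reads over introns, so junction reads can be lost, and near-identical family members can share reads. The deposited counts are whole reads per gene symbol; the deposited normalized signal of the authors equals the count divided by 1 constant per library and was used for 1 alternative. Per library, depth was 34036600 to 44374100 counts. No 2 libraries agreed within sampling noise: between replicates, chi-square over its degrees of freedom was 9.99 to 219.9. This range followed the split in mitochondrial rRNA share. Replicates on the same side of it gave 9.99 to 28.0, and replicates on different sides 133 to 219.9. All Pam3+TGFβ libraries were on the low side, and the part of this split in the results was not tested. Reads carry no molecular identifiers, so floors cover counting error only.

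Counts were filtered with filterByExpr (minimum count 10), scaled with TMM and fitted in edgeR 4.0.16 (R 4.3.3) by the robust quasi-likelihood test over all 12 libraries with 4 group means; 5 contrasts were tested, with Benjamini-Hochberg adjustment over 14749 genes and calls under 0.05. The SE is the log2 fold change divided by the square root of F. Levels are CPM of the TMM-scaled libraries, as mean ± SD. Gene models, overlaps and lengths are from GENCODE M39, and promoter windows from RefSeq. Alternatives were other scalings, DESeq2 1.42.0, limma-trend (limma 3.58.1) on log2 of the deposited values plus 1, no filter, a replicate block, the compared libraries alone, and each library left out. A covariate for the mitochondrial rRNA share and a fit of the 7 libraries of low share were chosen after seeing the data.

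The 9 genes, the other lists and the tests were chosen with earlier results of these data known. Genes beyond the 9 were named by rule: from each list up to 6 (families, interferon signalling, IFIT and OAS) or 3 tested genes with the largest interaction, plus Ifng, Ifnb1 and Irf1, the nearest neighbours within 200 kilobases, and the 10 most similar patterns; 1 further gene and 1 promoter stretch are not reported here. Tested on simulated counts of 14496 genes, the interaction test recovered 64 of 95 genes changed by 1 and 86 of 104 changed by 2 on the log2 scale, and 9 of its 159 calls (5.66%) were unchanged genes. The counts were drawn independently from group means and fitted dispersions, without the split in mitochondrial rRNA share. These rates hold for that model and do not measure the errors in these data.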

Additional observations from a re-analysis of the deposited data

Results flagged for a closer look

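Each gene listed here had a called interaction by edgeR's quasi-likelihood test (adjusted p under 0.05). In that test 10.3% of all tested genes were called higher. Iigp1 and Tgtp1 passed the filter on low counts only through their libraries with Pam3, and the call of Iigp1 was lost in 9 of 20 alternatives. The values are log2 differences, the response with TGFβ minus that without it. Among the 9 GTPase genes the interaction was Gbp2 1.55, Gbp3 1.75, Gbp5 3.30, Gbp7 1.35, Iigp1 2.86, Irgm1 1.70, Irgm2 1.63, Igtp 1.60 and Ifi47 2.70. Among other family genes it was Tgtp2 4.60, Gbp4 3.68, Tgtp1 3.18, Gbp10 2.86, Gm12250 2.85 and Gbp6 2.56. Among interferon signalling genes it was Batf2 3.27, Nlrc5 3.05, Irf7 2.45, Usp18 2.43, Socs1 1.78 and Irf1 1.28. Among genes of vacuole targeting it was Rnf213 1.76, Trim21 1.05 and Sqstm1 0.61, and among inflammasome genes Zbp1 2.19, Casp4 1.98 and Nlrp3 0.85. Among IFIT, OAS and Mx genes it was Ifit1 3.37, Ifit3 3.31, Ifit2 3.29, Ifit3b 3.26, Ifit1bl1 3.14, Oasl1 2.72, Mx1 4.29 and Mx2 3.06. Among neighbours it was Smim3 0.53 and Psme2b 0.54.

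Groups of 3 libraries were not tested for single outlying libraries.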

How the results depend on the processing

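In 21 alternatives (20 for the interaction) no called change of the 9 genes reversed; the change of Irgm2 with TGFβ alone, near 0 and not called, was positive in 10 of them. All calls for Gbp2, Gbp5, Irgm2, Igtp and Ifi47 held in every comparison and alternative, and calls changed only for Iigp1, Irgm1, Gbp3 and Gbp7, with the values given beside their results. Over the 7 libraries of low mitochondrial rRNA share, the Pam3 response without TGFβ had 744 genes called higher and 429 lower in place of 1419 and 1278, and that with TGFβ had 1825 and 1545 in place of 3008 and 2670. There TGFβ without Pam3 lowered 3 of the 9 genes (median -0.21) and 2725 of all genes, in place of 5, -0.52 and 4141. TGFβ with Pam3 raised 2107 of all genes in place of 3165 and 5 other family genes in place of 9, with a median of 1.29 over the 9 genes in place of 1.48. The interaction had 576 higher, 226 lower and 9 other family genes higher in place of 1516, 836 and 15, and 553 lower with the covariate. Fewer libraries and the changed balance between groups enter this fit together.

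The number of other family genes lowered by Pam3 was 1 in the main analysis. Without TGFβ it was 2 with upper-quartile scaling and DESeq2, 0 over the libraries of low share, and 0 to 2 with 1 library left out. With TGFβ it was 2 with upper-quartile scaling, DESeq2, limma-trend and the compared libraries alone, and 1 to 2 with 1 library left out. The 1 called negative interaction among them was lost (0) without the filter and with the covariate. The number of such calls was 0 to 1 with 1 library left out.

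Equal replicate numbers did not clearly pair the libraries. Correlations of their deviations ran from -0.17 to 0.30 (median 0.061), over 0.1 in 7 of 18 pairs, and 5 of 12 libraries correlated best with their own number. Pairs of other numbers ran from -0.40 to 0.32 (median -0.058), over 0.1 in 8 of 36. The highest of these joined TGFβ replicate 2 and Pam3 replicate 1, both of low mitochondrial rRNA share. The lowest joined TGFβ replicate 2 and untreated replicate 3, which is of high share. The pairs among replicates 3 were all positive, from 0.033 to 0.30. With the replicate block, 9 of 9 genes were called higher in both Pam3 responses, in TGFβ with Pam3 and in the interaction. A called positive interaction was found for 1537 genes in place of 1516. No call of the 9 genes changed, and 2 of 275 calls of all named genes did. Depth limits Iigp1, with 0 to 12 counts in libraries without Pam3.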

Other observations

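Large GTPases outside the GBP and IRG families gave a comparison for the fold of the protein rather than for interferon. Of 10 such genes (atlastins, mitofusins, dynamins and Opa1 among them), 8 were tested. Their Pam3 responses ran from -0.53 to 0.019 without TGFβ and from -0.16 to 0.11 with it, and their interactions from -0.094 to 0.40 on the log2 scale. Atl1, with 4 to 34 counts a library, set the ends at -0.53 and 0.40 (SE 0.70 and 0.97), and without it the responses without TGFβ ran from -0.13 to 0.019 and the interactions from -0.094 to 0.17. TGFβ lowered 4 of the 8 without Pam3 and 4 with it, where 28.1% and 23.8% of all tested genes were called lower, with medians of -0.16 and -0.14. Opa1, which fuses inner mitochondrial membranes, was at 114 ± 8.02, 101 ± 3.27, 106 ± 5.48 and 101 ± 3.87 CPM in the untreated, TGFβ, Pam3 and Pam3+TGFβ groups (SD, n = 3).

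The dynamin-like antiviral GTPases Mx1 and Mx2, which are induced by type I interferon, were both called in all 5 comparisons. Mx1 was at 9.52, 13.9 and 12.8 CPM in untreated libraries and at 0.4704, 1.85 and 1.47 CPM with TGFβ. It was at 66.6, 59.5 and 47.9 CPM with Pam3 and 123, 123 and 118 CPM with both agents. The fall with TGFβ alone was 9.39-fold (-3.23 ± 0.33, adjusted p = 3.37e-05), larger than that of any of the 9 GBP and IRG genes, and the rise with TGFβ in the presence of Pam3 was 2.09-fold (1.06 ± 0.21, adjusted p = 0.00315). Mx2 had -0.92 ± 0.23 and 2.14 ± 0.12 in the same comparisons.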
